A study of Mus musculus with 6 samples.

Results

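Endothelial Notch signalling was examined through 10 genes, Dll4, Jag1, Jag2, Notch1, Notch4, Lfng, Hes1, Hey1, Hey2 and Nrarp, chosen by symbol as the ligands, receptors, modifier and targets best known from blood vessels. All 10 were among the 24421 genes of the count table, and all 10 passed the filter on low counts. RNA had been sequenced from retinal endothelial cells of mouse pups of a mixed BL6/CD1 background, which received tamoxifen on postnatal day 1 and were killed on postnatal day 7. Smad4-iECKO pups (3 samples) had both floxed Smad4 and Cdh5-CreERT2, in which the promoter of the endothelial gene for VE-cadherin drives a Cre that tamoxifen activates. Smad4f/f pups (3 samples) had floxed Smad4 and no Cre, so a difference between the groups can also include an effect of Cre itself. Whether a sample was 1 pup or a pool is not given in the sources used here, so each p-value reflects variation among the samples, which may be technical.

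Notch receptors are cut at the membrane when a ligand on a neighbouring cell binds them, and the released intracellular part joins the DNA-binding protein RBPJ to switch on target genes. In growing retinal vessels Dll4 on the leading tip cell activates Notch1 in the stalk cells behind it and holds back further sprouting, while Jag1 opposes Dll4 where Fringe enzymes have modified the receptor. BMP signalling through SMAD4 is known to act on several of the same target genes. Smad4 is the shared partner of the BMP and TGF-beta SMADs, and the comparison asked which transcripts differ after its loss from the endothelium.

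Depth and endothelial content differed between libraries within each group. Total counts ran from 12633018 to 23164952 in 5 libraries and were 2233360 in Smad4-iECKO replicate 2. Replicate 2 of each group has a sample title beginning with Lit40 and the other 4 titles begin with Lit38, which gives title prefixes 40 and 38. What the prefix stands for is not in the labels. Levels are CPM, shares of the library total scaled by the trimmed mean of M values (TMM) so that libraries compare. All 20 endothelial markers were detected in every library. Their share of the counts was 0.712%, 0.136% and 0.402% across the control libraries (Smad4f/f, always given in the order of replicates 1, 2 and 3) and 0.227%, 0.492% and 0.377% across the Smad4-iECKO libraries in the same order. Markers of rods and cones (9 genes) held 0.360%, 0.791% and 0.525% in the controls and 0.602%, 0.406% and 0.533% after Smad4 deletion. Sag, Crx and Nr2e3 were the most abundant of them. Their share was above that of the endothelial markers in every library except Smad4f/f replicate 1 and Smad4-iECKO replicate 2. RNA of other retinal cells was therefore present, and in such bulk samples fewer cells of a type and less RNA per cell cannot be told apart. The targeted gene Smad4 averaged 140.0 ± 26.5 CPM in controls against 118.7 ± 21.7 CPM in Smad4-iECKO (SD, n = 3 per group). The groups overlapped (log2 fold change -0.24, standard error 0.29, edgeR unadjusted p = 0.441, adjusted p = 0.9999), so no loss of Smad4 RNA was shown. Reads from exons outside the deleted part and from other retinal cells also count here, so this level is no check of genotype. The part of either was not tested.

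The promoter windows of Hey2, Lfng, Dll4 and Notch4 are shown because Hey2 had the lowest fold change of the 10 genes and the other 3 the highest. Each runs from 250 bases before to 50 bases after the start site, 5′ to 3′ on the strand of the gene, from RefSeq on GRCm38.p6. Capitals mark TGGGAA, the core of the RBPJ site, or its reverse complement TTCCCA, and GGCGCC, a palindrome linked to SMAD binding. The windows are chr10:30842734-30843033 (minus strand) for Hey2, chr5:140607091-140607390 (plus strand) for Lfng, chr2:119325534-119325833 (plus strand) for Dll4 and chr17:34564045-34564344 (plus strand) for Notch4.
Hey2: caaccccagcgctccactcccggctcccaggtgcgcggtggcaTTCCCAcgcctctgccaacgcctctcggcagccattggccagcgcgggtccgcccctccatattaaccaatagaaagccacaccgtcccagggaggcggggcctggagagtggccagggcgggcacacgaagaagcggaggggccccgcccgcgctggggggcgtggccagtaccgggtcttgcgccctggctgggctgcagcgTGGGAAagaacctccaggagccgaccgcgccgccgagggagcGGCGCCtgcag
Lfng: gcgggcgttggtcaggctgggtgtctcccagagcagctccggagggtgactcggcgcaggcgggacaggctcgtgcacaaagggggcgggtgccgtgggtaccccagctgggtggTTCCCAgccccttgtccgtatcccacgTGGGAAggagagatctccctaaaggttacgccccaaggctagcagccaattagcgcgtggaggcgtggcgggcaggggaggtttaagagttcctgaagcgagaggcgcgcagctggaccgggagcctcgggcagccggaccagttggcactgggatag
Dll4: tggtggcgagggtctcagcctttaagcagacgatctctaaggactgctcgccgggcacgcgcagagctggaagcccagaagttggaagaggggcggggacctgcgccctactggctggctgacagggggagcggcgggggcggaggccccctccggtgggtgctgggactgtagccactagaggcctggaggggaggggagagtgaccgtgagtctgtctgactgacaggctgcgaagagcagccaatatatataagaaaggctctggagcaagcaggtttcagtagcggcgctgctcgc
Notch4: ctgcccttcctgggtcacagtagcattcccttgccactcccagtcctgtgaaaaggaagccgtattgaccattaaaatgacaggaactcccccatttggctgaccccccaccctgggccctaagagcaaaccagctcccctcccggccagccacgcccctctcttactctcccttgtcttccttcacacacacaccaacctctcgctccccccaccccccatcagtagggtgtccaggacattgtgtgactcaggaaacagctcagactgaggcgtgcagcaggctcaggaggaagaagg

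The RefSeq table held windows for 8 of the 10 genes, with Hes1 and Hey1 not matched. TGGGAA was found on either strand in 2 of the 8, Hey2 and Lfng, each of which held it once on each strand. In Hey2 the copy on the strand of the gene began 3 bases before the start site. Of all 32851 promoter windows of this length, 25.6% held TGGGAA and 11.9% held GGCGCC, which the Hey2 window alone of the 8 contained. A match of letters is a description and not a site, and a window without one says nothing about the factor.

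None of the 10 Notch genes passed the test between Smad4-iECKO and Smad4f/f. Dll4, Lfng, Notch1, Notch4 and Jag2 had positive log2 fold changes and Jag1, Hes1, Hey1, Hey2 and Nrarp negative ones, with a median of 0.14 against -0.017 over all 14362 genes tested, of which 48.2% were positive. By edgeR's quasi-likelihood test with Benjamini-Hochberg adjustment over all genes, 0 of the 10 were called, and 0 of all genes (0% of those tested). At an unadjusted p under 0.05 there were 0 of the 10 and 188 of all genes (1.31%). DESeq2 called 0 of the 10 and 12 of all genes (0.0611%), and limma-voom with sample quality weights called 0 of the 10 and 8 of all genes (0.0557%). Every one of the 10 had overlapping groups, where 5.31% of all genes tested had groups that did not overlap.

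**Figure D1:**
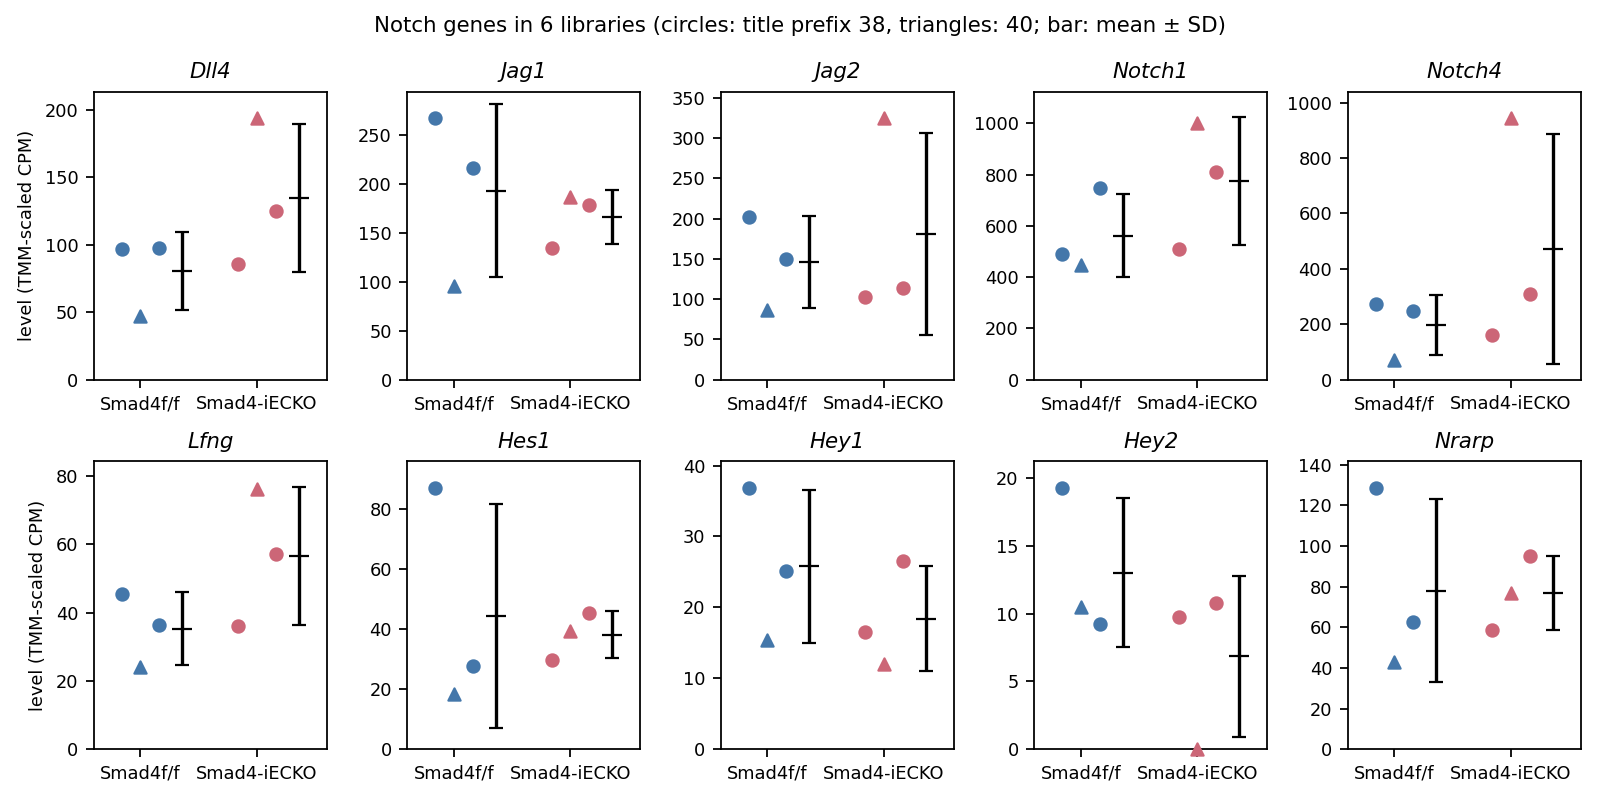
Level of each of the 10 Notch genes in TMM-scaled CPM (vertical axes, linear, from 0) in the 3 Smad4f/f and 3 Smad4-iECKO libraries. Points are libraries, with circles for title prefix 38 and triangles for title prefix 40, and bars are the mean ± SD. The groups overlap in every panel, the Smad4-iECKO library of prefix 40 is the highest for Dll4, Jag2, Notch1, Notch4 and Lfng, and it is at 0 for Hey2.

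Among the ligands, Dll4, the tip cell ligand, was higher on average in Smad4-iECKO. Control libraries held 96.7, 47.2 and 97.4 CPM, and Smad4-iECKO libraries 85.6, 193.8 and 124.5 CPM. Replicates 2 and 3 of Smad4-iECKO lay above every Smad4f/f library, and replicate 1 lay below Smad4f/f replicates 1 and 3. Group averages of 80.4 ± 28.8 and 134.7 ± 54.8 CPM (SD, n = 3 per group) corresponded to a log2 fold change of 0.74 ± 0.40 (standard error, here and below; edgeR unadjusted p = 0.101, adjusted p = 0.9999). Without Smad4-iECKO replicate 2 the log2 fold change was 0.36.

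Jag1, the ligand that opposes Dll4 in sprouting vessels, had a lower mean in Smad4-iECKO. Controls held 267.8, 95.9 and 216.3 CPM, and Smad4-iECKO libraries 134.8, 186.4 and 178.7 CPM. The Smad4-iECKO libraries all lay between the lowest and the middle Smad4f/f library. Their mean was 166.6 ± 27.8 against 193.3 ± 88.2 CPM (log2 fold change -0.22 ± 0.39, edgeR adjusted p = 0.9999). Without Smad4f/f replicate 1, the highest library, the log2 fold change was 0.088.

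Jag2, a Jagged ligand of arterial endothelium, was set apart by single libraries. Its control values were 201.3, 86.6 and 150.0 CPM, and those of Smad4-iECKO 103.1, 324.9 and 113.9 CPM. Smad4-iECKO replicate 2 was the highest of the 6 libraries, while the other 2 Smad4-iECKO libraries lay below Smad4f/f replicates 1 and 3. A log2 fold change of 0.30 ± 0.50 (edgeR adjusted p = 0.9999) became -0.45 without Smad4-iECKO replicate 2.

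Of the receptors, Notch4, which is largely restricted to endothelium, had the largest fold change of the 10 genes, with 1 library far above the rest. Levels were 272.0, 72.1 and 247.2 CPM in controls, then 162.9, 944.5 and 309.9 CPM after deletion. Smad4-iECKO replicate 2 was 3.05 times as high as the next library, and replicate 1 fell within the Smad4f/f range. Averages of 197.1 ± 109.0 and 472.4 ± 415.4 CPM (SD, n = 3 per group) gave a log2 fold change of 1.26 ± 0.69 (edgeR unadjusted p = 0.0995, adjusted p = 0.9999). Without Smad4-iECKO replicate 2 it was 0.24 ± 0.56, and without Smad4f/f replicate 2, the lowest library, it was 0.85.

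Notch1, the receptor that restrains sprouting in stalk cells, reached 488.8, 447.9 and 749.1 CPM in controls, against 508.6, 1002.6 and 810.9 CPM with Smad4 deleted. Replicates 2 and 3 of Smad4-iECKO were above all Smad4f/f libraries and replicate 1 was not. Its log2 fold change was 0.46 ± 0.38 (edgeR adjusted p = 0.9999), and 0.21 without Smad4-iECKO replicate 2. It was 0.018 in limma-voom and 0.095 with scaling to the endothelial markers. Neural progenitors of the retina also express this gene, as background, so its transcripts need not be endothelial.

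Lfng encodes a Fringe enzyme that adds sugar to Notch and favours activation by Delta-type over Jagged ligands. Controls held 45.3, 24.0 and 36.4 CPM, and Smad4-iECKO libraries 35.9, 76.2 and 57.2 CPM, in the same order of libraries within Smad4-iECKO as Dll4, Notch1 and Notch4. The mean was 56.4 ± 20.2 against 35.3 ± 10.7 CPM (log2 fold change 0.67 ± 0.38, edgeR unadjusted p = 0.110, adjusted p = 0.9999). Without Smad4-iECKO replicate 2 the log2 fold change was 0.38.

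The target genes had lower or nearly equal means in Smad4-iECKO, and none was called. Hes1, a transcriptional repressor induced by Notch and by BMP, stood at 87.1, 18.4 and 27.6 CPM in controls, against 29.7, 39.5 and 45.3 CPM in Smad4-iECKO. Smad4f/f replicate 1 was far above the other 5 libraries, and all 3 Smad4-iECKO libraries were above the other 2 Smad4f/f libraries. A log2 fold change of -0.22 ± 0.55 (edgeR adjusted p = 0.9999) thus turned to 0.73 without Smad4f/f replicate 1.

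Hey1, a repressor downstream of Notch1 and ALK1, measured 36.9, 15.3 and 25.1 CPM in controls, against 16.5, 12.1 and 26.5 CPM in Smad4-iECKO. The lowest library was Smad4-iECKO replicate 2, where Dll4, Notch1 and Notch4 were highest. Its Hey1 level rests on 26 counts, against 297 to 468 in the other libraries, and Smad4f/f replicate 2 was close to it. Hey1 had a log2 fold change of -0.47 ± 0.44 (edgeR unadjusted p = 0.316, adjusted p = 0.9999). It was negative in every fit that left out 1 library, between -0.83 and -0.12.

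Hey2, an arterial repressor of the same family, measured 19.3, 10.5 and 9.28 CPM in controls, against 9.78, 0 and 10.8 CPM in Smad4-iECKO. A count of 0 in Smad4-iECKO replicate 2 allows up to 1.39 CPM (3 counts, counting error only), below every other library. Of 9586 genes whose other 5 libraries were all at least as high as the lowest of these for Hey2, 65 (0.678%) were at 0 in that library. This set has no upper limit on level, so genes close to the level of Hey2 may be at 0 more often, which was not computed. With all libraries the fitted log2 fold change of Hey2 was -0.83 ± 0.84 (edgeR adjusted p = 0.9999), and without Smad4-iECKO replicate 2 it was -0.37. The groups otherwise differed through Smad4f/f replicate 1 alone, since the remaining 4 libraries lay between 9.28 and 10.8 CPM.

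Nrarp, a short ankyrin protein that is induced by Notch and damps it, averaged 78.0 ± 45.0 CPM in controls and 76.9 ± 18.3 CPM after deletion. Control libraries held 128.8, 42.8 and 62.5 CPM, and Smad4-iECKO libraries 58.8, 76.7 and 95.3 CPM. The Smad4-iECKO libraries lay within the range of the Smad4f/f libraries. Its log2 fold change was -0.020 ± 0.43 (edgeR adjusted p = 0.9999), turning to 0.54 without Smad4f/f replicate 1 and to 0.14 without Smad4-iECKO replicate 1.

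**Figure D2:**
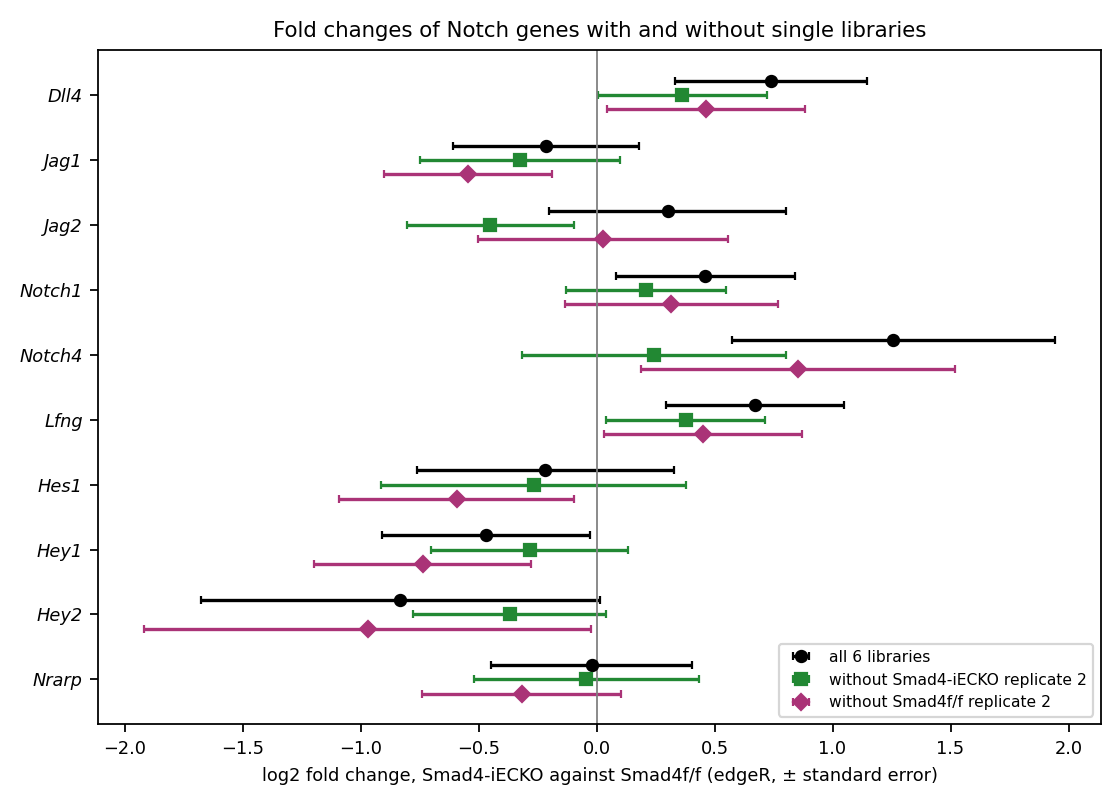
Fold changes of the 10 Notch genes (log2, horizontal axis) with all 6 libraries, without Smad4-iECKO replicate 2 and without Smad4f/f replicate 2. Points are edgeR estimates and bars are ± 1 standard error. Notch4 moves from 1.26 to 0.24 and Jag2 from 0.30 to -0.45 without Smad4-iECKO replicate 2, while Hey1 and Hey2 stay below 0 in all 3 fits.

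The lowest and highest libraries of the 10 genes were set beside their endothelial content. Smad4f/f replicate 2, with the lowest share of endothelial markers, was the lowest library for 8 of the 10 genes, all but Hey1 and Hey2. Smad4f/f replicate 1, with the highest share, was the highest for 5 (Jag1, Hes1, Hey1, Hey2 and Nrarp), and Smad4-iECKO replicate 2 for the other 5 (Dll4, Jag2, Notch1, Notch4 and Lfng). How many of all genes were lowest or highest in these libraries was not computed, so these counts may be traits of the libraries. The 11 pericyte and smooth muscle markers held 0.0677% of counts in Smad4f/f replicate 2, the lowest library, and 0.291% in Smad4f/f replicate 1 against 0.204% in the second library of Smad4-iECKO. That list includes the Notch pathway genes Notch3 and Heyl. Notch3 made up 694.4 of its 2115 CPM in Smad4-iECKO replicate 2, so the list does not measure cell content apart from the pathway. Rod and cone markers ran the other way in the controls, highest in Smad4f/f replicate 2 (0.791%) and lowest in Smad4f/f replicate 1 (0.360%). The 10 markers of microglia and macrophages, of which Csf1r, Laptm5 and Cx3cr1 were the most abundant, held 0.00351% to 0.00549% of counts in controls. They held 0.00824% to 0.0110% after Smad4 deletion, and the groups did not overlap for this sum. Gene by gene, Csf1r, Cx3cr1, C1qa, Aif1 and Tyrobp had overlapping groups in CPM, and Laptm5, C1qb, C1qc, Itgam and Trem2 did not. Of all genes tested, 5.31% had groups that did not overlap. The part of these cells in the results was not tested.

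The genotypes were also set side by side within the title prefixes. In prefix 38, with 2 libraries per group, the log2 fold change was -0.71 for Jag2 and -0.15 for Notch4, while with all 6 libraries both were positive. In edgeR with an interaction of prefix and genotype, a test chosen after the data were seen, 3.84% of all genes were called, among them Jag2 and Notch4 and none of the other 8 genes. Prefix 40 had 1 library per group, 1 of them the shallowest, so this test assumes that a lone library varies like those of prefix 38, and prefix and library cannot be told apart.

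**Figure D3:**
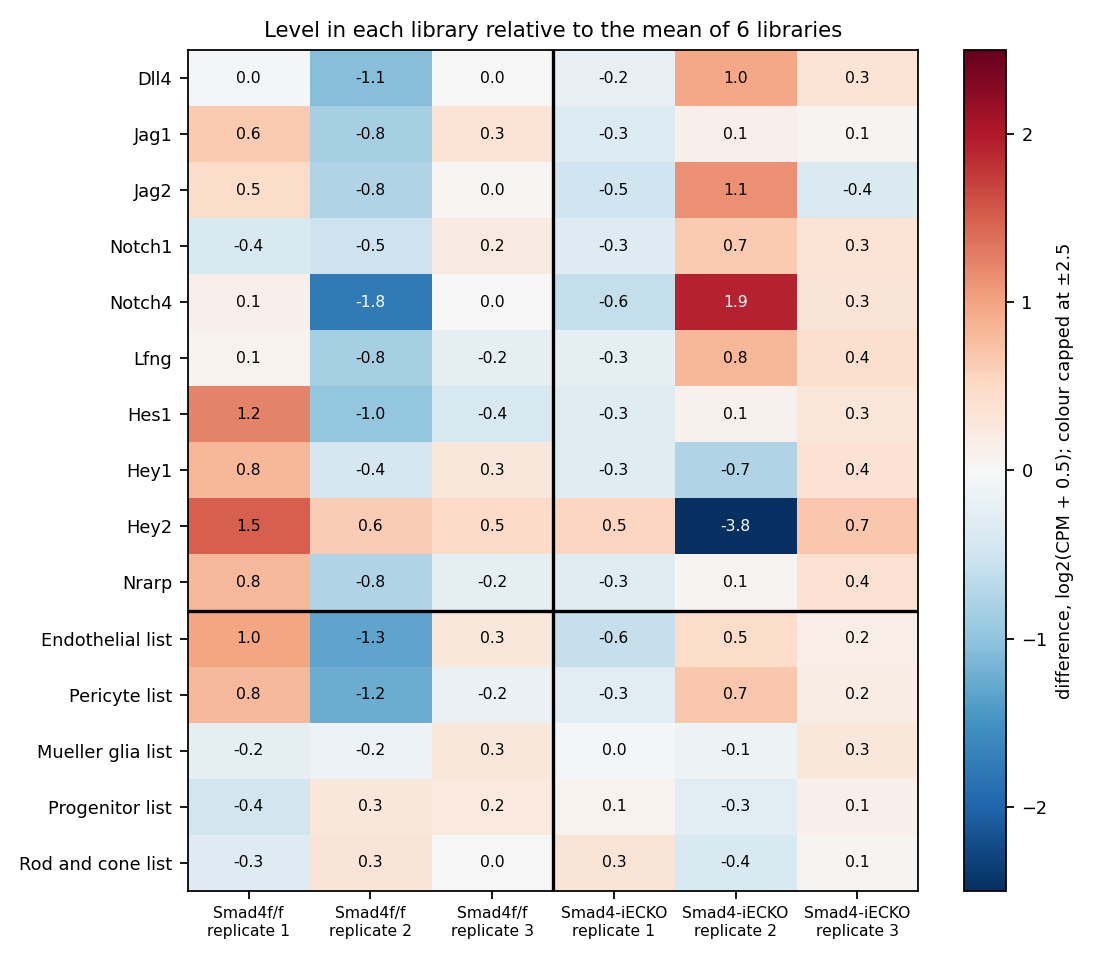
Difference of each library from the mean of the 6 libraries, in log2(CPM + 0.5), for the 10 Notch genes (upper rows) and 5 marker lists (lower rows, mean over the list). Columns are libraries, with Smad4f/f left of the line, and red is above and blue below the mean. The pericyte list includes the pathway genes Notch3 and Heyl, and the progenitor list includes Hes5 and Dll1. Smad4f/f replicate 2 is low for most Notch genes and for the endothelial and pericyte lists, and Smad4-iECKO replicate 2 is high for Notch4 and low for Hey1 and Hey2.

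Set against the endothelial list, Notch4 was the 1 gene of the 10 whose groups did not overlap. For each 1000 counts of the endothelial list, Notch4 had 38.3, 55.8 and 59.8 counts in controls and 73.2, 185.1 and 81.3 after deletion. All 3 Smad4-iECKO libraries were above all 3 Smad4f/f libraries, as for 1.67% of all genes tested on this scale. That share counts this direction only, and the share in either direction is larger or equal. On this scale the log2 fold change was 1.14 ± 0.99 (edgeR scaled to the endothelial list, unadjusted p = 0.247, adjusted p = 0.99995), and none of the 10 genes and 0% of all genes were called. Dll4 had 13.6, 36.5 and 23.6 counts in controls and 38.4, 37.98 and 32.7 after deletion. Smad4-iECKO libraries were alike for Dll4 on this scale, and Smad4f/f replicate 2 lay among them. This scaling shifted the median log2 fold change of all genes to -0.34.

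The balance of the 2 best known sprouting ligands was the only one of 3 ratios computed whose groups did not overlap. How often other gene pairs separate in this way was not computed. The log2 ratio of Jag1 to Dll4 within a library was 1.47, 1.02 and 1.15 in controls, and 0.66, -0.056 and 0.52 after deletion. All 3 Smad4-iECKO libraries were below all 3 Smad4f/f libraries, which by itself fixes the same order within each title prefix. Group averages were 1.21 ± 0.23 and 0.37 ± 0.38 (SD, n = 3 per group), so the Smad4-iECKO average was lower, with a difference of -0.84. An exact permutation test, two-sided, gave p = 0.1, which no arrangement of 3 against 3 can undercut, and 0.3 after Benjamini-Hochberg adjustment over the 3 ratios computed. A ratio within a library does not depend on the scaling, but transcripts of other retinal cells can enter either gene.

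The other 2 ratios had overlapping groups. The log2 ratio of Notch4 to Notch1 was -0.85, -2.63 and -1.60 in controls and -1.64, -0.086 and -1.39 after deletion, a mean difference of 0.65 (exact permutation p = 0.5, adjusted p = 0.5). The log2 ratio of Hey1 to Hes1 was -1.24, -0.26 and -0.14 in controls and -0.85, -1.71 and -0.77 after deletion, a mean difference of -0.56 (exact permutation p = 0.3, adjusted p = 0.45). Within the Smad4-iECKO range lay Smad4f/f replicates 1 and 3 for Notch4 to Notch1, and Smad4f/f replicate 1 for Hey1 to Hes1.

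**Figure D4:**
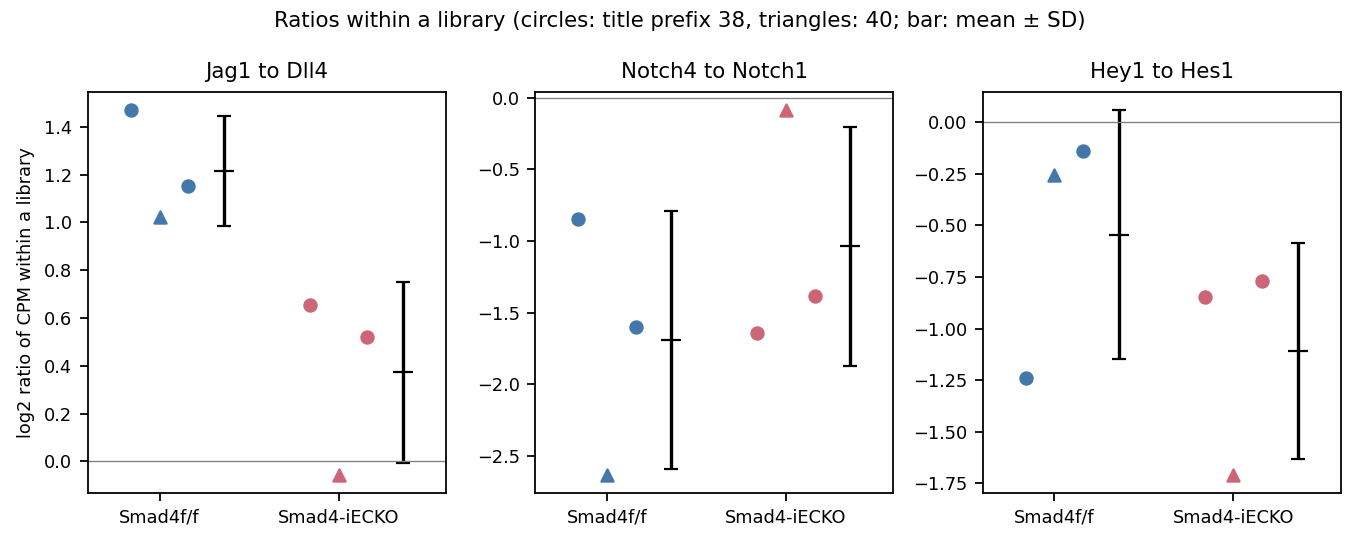
Log2 ratios of CPM within a library for Jag1 to Dll4, Notch4 to Notch1 and Hey1 to Hes1 (vertical axes) by group. Points are libraries, with circles for title prefix 38 and triangles for title prefix 40, and bars are the mean ± SD. For Jag1 to Dll4 the Smad4-iECKO libraries (-0.056 to 0.66) all lie below the Smad4f/f libraries (1.02 to 1.47), and the groups overlap in the other panels.

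Levels per kilobase of exon order the genes. In Smad4f/f, Notch1 was highest at 39.5 ± 11.5 CPM per kb, followed by Jag1 at 33.2 ± 15.1, Nrarp at 30.2 ± 17.4 and Notch4 at 24.5 ± 13.5 CPM per kb. Hes1, Jag2 and Dll4 were close together at 21.8 ± 18.3, 21.0 ± 8.25 and 20.9 ± 7.47 CPM per kb, and none of these 7 differed from its neighbour beyond the spread. Lfng (14.1 ± 4.28 CPM per kb), Hey1 (7.89 ± 3.31) and Hey2 (2.84 ± 1.19) were the lowest, and Hey1 and Hey2 were also the lowest in Smad4-iECKO. In Smad4-iECKO, Notch4 (58.6 ± 51.5) and Notch1 (54.4 ± 17.5) led, followed by Dll4 at 34.96 ± 14.2 CPM per kb.

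The genes lie on several chromosomes (GENCODE M21, mm10), with Dll4, Jag1, Notch1 and Nrarp all on chromosome 2. Nrarp ends there at 25183339 and Notch1 starts at 26457903. Dll4 is at chromosome 2, 119325784 to 119335962, Notch4 at chromosome 17, 34564268 to 34588503, and Jag1 at chromosome 2, 137081456 to 137116644. The library kit does not record strand, and annotated features on the opposite strand overlap 4 of the genes (Gm14207 at Dll4, 0610009E02Rik and Gm13568 at Notch1, Gm38287 at Nrarp and the pseudogene Gm20462 at Notch4), so their reads cannot be told apart there. Gm14207 itself had at most 4.57 CPM in any library, far below Dll4.

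The rest of the pathway showed no call either. Of 44 further genes in 3 lists, 43 were tested by edgeR, 25 had positive and 18 negative log2 fold changes, and 0 passed after adjustment or at an unadjusted p under 0.05 (median 0.087). Of the 7 other ligands and receptors 5 were positive and 2 negative (median 0.43). Notch3, the receptor of pericytes and smooth muscle, measured 174.1, 91.9 and 210.8 CPM in controls, against 162.0, 694.4 and 249.4 CPM in Smad4-iECKO. It was highest in Smad4-iECKO replicate 2, as Notch4 was (log2 fold change 1.21 ± 0.56, unadjusted p = 0.0571, edgeR adjusted p = 0.9999). The receptor Notch2 averaged 60.0 ± 21.1 and 83.3 ± 14.3 CPM, controls first, and the Delta ligand Dll1 of neural progenitors at 31.4 ± 10.3 and 42.6 ± 15.6 CPM, each with overlapping groups.

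Of 25 genes for receptor sugars, cleavage and trafficking, 13 were positive and 12 negative (median 0.031). Psen2, a catalytic part of gamma-secretase, Dtx1, a ubiquitin ligase of the Deltex family, and Numbl, a relative of the Notch inhibitor Numb, had the smallest p (unadjusted p = 0.194, 0.254 and 0.261, edgeR), each highest in Smad4-iECKO replicate 2. The Fringe gene Mfng was at 68.3 ± 23.2 and 73.5 ± 30.7 CPM. Of 11 tested nuclear factors and targets, 7 were positive and 4 negative (median 0.059), with Hes7 not tested for low counts. Rbpj, the DNA-binding partner of Notch, measured 62.2, 87.4 and 74.4 CPM in controls, against 79.5, 19.5 and 81.3 CPM in Smad4-iECKO, low in Smad4-iECKO replicate 2 alone. The targets Heyl (32.1 ± 10.9 and 34.3 ± 9.47 CPM) and Hes5 (15.4 ± 7.22 and 14.2 ± 4.09 CPM) had group averages closer than their SDs. The co-repressor Spen, the endothelial repressor Bcl6b and Rbpj had the smallest p of these 11 (unadjusted p = 0.246, 0.444 and 0.55, edgeR).

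Among 12 endothelial genes known to respond to Notch or to shape its response, 4 were positive and 8 negative (median -0.24). Gja4, an arterial gap junction gene, had a log2 fold change of -1.41 ± 0.52 (unadjusted p = 0.0240, edgeR adjusted p = 0.9999). Controls held 140.9, 34.7 and 78.5 CPM, and Smad4-iECKO libraries 19.2, 42.8 and 34.8 CPM, with Smad4f/f replicate 2 among the Smad4-iECKO libraries. The arterial factor Sox17 (75.3 ± 65.1 and 34.1 ± 12.2 CPM) and the VEGF co-receptor Nrp1 (223.2 ± 142.2 and 148.7 ± 26.2 CPM) overlapped as well.

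**Figure D5:**
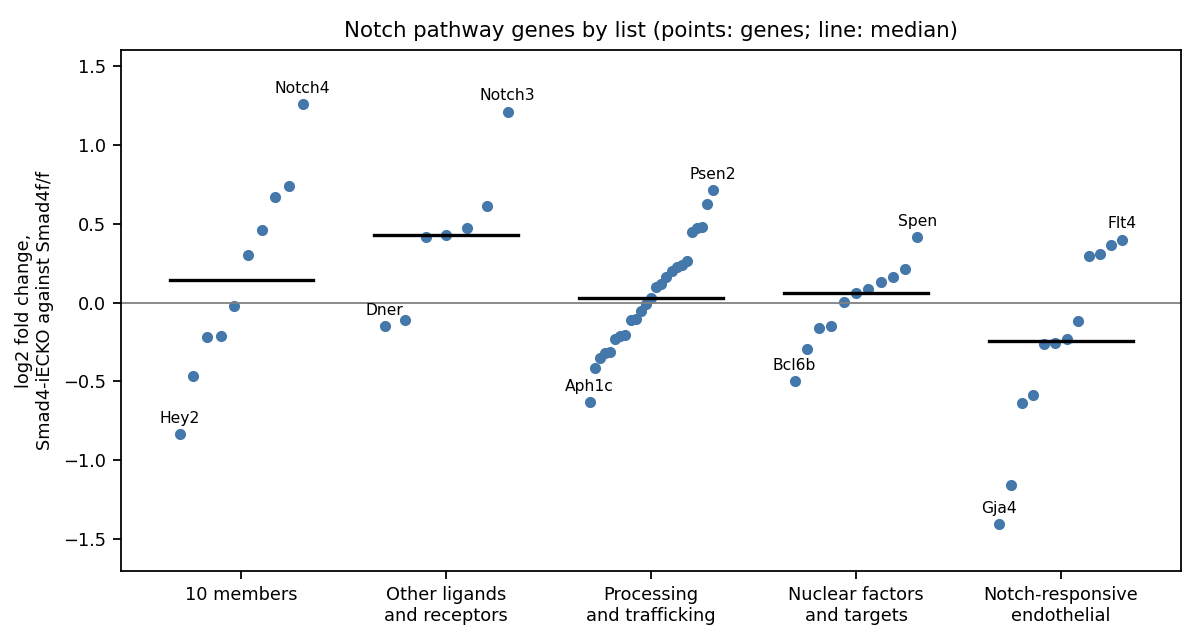
Log2 fold changes of Smad4-iECKO against Smad4f/f (vertical axis, edgeR) for the tested genes of 5 lists, each point 1 gene, lines at the list medians, and the lowest and highest gene of each list named. The medians are 0.14 for the 10 genes, 0.43, 0.031 and 0.059 for the 3 lists of other pathway genes and -0.24 for Notch-responsive endothelial genes, and no gene passed the adjusted threshold.

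Of the 10 genes, 3 were called in the authors' deposited table. Of the 14225 genes with an adjusted p in the authors' deposited table, 13.4% were under 0.05 in either direction, and 7.7% were so and higher in Smad4-iECKO. In the authors' deposited table Lfng had a log2 fold change of 0.62 with an adjusted p of 0.0136, Dll4 0.67 with 0.0166 and Notch4 0.92 with 0.0274. Notch1 (0.44, adjusted p = 0.0658) and Hey1 (-0.41, adjusted p = 0.188) were not called in the authors' deposited table. Each of the 6 samples had 3 deposited columns of counts, identical in all 24421 genes. DESeq2 with all 18 columns entered as if they were samples called the same 3 genes, Lfng (adjusted p = 0.0144), Dll4 (adjusted p = 0.0174) and Notch4 (adjusted p = 0.0285), and 12.1% of all genes, or 11.8% with a fold change prior. With each sample entered once, DESeq2 gave log2 fold changes of 0.68, 0.75 and 1.28 for these 3 and called none of them (adjusted p = 0.9996 for each). The 18 columns gave the same fold changes to 2 decimals without the prior, and 0.62, 0.67 and 0.91 with it.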

How the data were processed

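RNA-seq counts of 2 groups of 3 samples were analysed. STAR, DESeq2 and mm10 are named per the submitters' processing notes, without versions, and the counting tool is not given in the sources used here. The authors' deposited table of counts per gene is not normalized. It has 18 columns, 3 identical ones per sample, of which 1 was used. The authors' deposited comparison, per the file headers, holds a mean normalized signal, log2 fold changes with standard errors, a Wald score and p-values.

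Groups came from the genotype label, and replicate numbers follow accession order and pair nothing. The test was edgeR 4.0.16 (R 4.3.3) quasi-likelihood with TMM scaling, filterByExpr (minimum count 10, minimum total 15), no covariate and Benjamini-Hochberg adjustment over all 14362 genes tested, with a threshold of 0.05. DESeq2 1.42.0 and limma 3.58.1 were alternatives. A standard error is the log2 fold change divided by the square root of F. Ratios used exact permutation tests (scipy 1.17.1). The scripts were tested on simulated data. Lengths and positions are from GENCODE M21, promoters from RefSeq GRCm38.p6, and figures from matplotlib 3.10.9.

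A count of 3 corresponds to 0.123 to 0.239 CPM in 5 libraries and to 1.39 CPM in Smad4-iECKO replicate 2, for counting error only. The 10 members and all lists were chosen with earlier results of these data known. All 10 members are named, as are 7 other pathway genes whatever their values and the 3 genes of each list with the smallest p. From the lists, 2 genes are not reported here.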

Additional observations from a re-analysis of the deposited data

Results flagged for a closer look

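For Notch4 and Jag2 the difference between the genotypes was not alike in the libraries of title prefix 38 (2 per group) and title prefix 40 (1 per group). An edgeR fit with an interaction of prefix and genotype was chosen after the data were seen. In it the log2 difference between the genotypes was larger with prefix 40 by 3.85 for Notch4 and by 2.60 for Jag2. It was also larger by 1.92 for Dll4 and by 1.59 for Jag1, and Hey2 had a count of 0 in 1 library. With 1 library per group in prefix 40, the spread in this fit comes from prefix 38 alone, so no gene is called from it. Jag1 and Jag2 were lower in both Smad4-iECKO libraries than in both Smad4f/f libraries of prefix 38, and higher in the Smad4-iECKO library of prefix 40. With so few libraries such an order can readily arise without a difference, and its share over all genes was not computed. The log2 ratios of Smad4-iECKO to Smad4f/f were -0.63 and 0.95 for Jag1, -0.68 and 1.90 for Jag2, -0.21 and 3.70 for Notch4, and 0.089 and 2.03 for Dll4, with prefix 38 first. With 1 library per group, prefix 40 cannot be told apart from those libraries. They held 0.136% (Smad4f/f) and 0.492% (Smad4-iECKO) of counts in endothelial markers, whose part was not tested.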

How the results depend on the processing

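Of the 10 genes, 0 were called in edgeR with other scalings, without the filter, with the prefix or the endothelial level in the model, in prefix 38 alone and without each replicate, and 0 by DESeq2 and limma-voom on 6 samples. All 18 columns gave 3 calls, also with a fold change prior (added after the data were seen). Over all genes the count of 0 became 12 (DESeq2), 8 (limma-voom), 2235 (18 columns) and 2178 (18 columns with the prior). It was 0 to 0 in the fits without 1 replicate.

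Dll4, Lfng, Notch1, Hey1 and Hey2 kept their direction in all 16 alternatives, with Dll4 between 0.099 and 0.98. Signs turned in prefix 38 alone for Jag2 (-0.71) and Notch4 (-0.15), with limma-voom for Jag2 (-0.28), Hes1 (0.38) and Nrarp (0.26), with the endothelial covariate for Hes1 (0.016) and Nrarp (0.081), with the prefix as a block for Nrarp (0.062) and with endothelial scaling for Nrarp (0.0020). Leaving out 1 replicate gave -0.54 to 0.088 for Jag1, -0.45 to 0.60 for Jag2, -0.59 to 0.73 for Hes1, -0.32 to 0.54 for Nrarp and 0.24 to 1.66 for Notch4. The cause was not tested. The Jag1 to Dll4 ratio differed by -0.98 to -0.63 without 1 replicate.

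No paired analysis was possible because the replicate numbers are in accession order and tie no library to another. The title prefix was used as a block instead, with 0 of all genes called. In Smad4-iECKO replicate 2, with 2233360 counts, a count of 0 allows up to 1.39 CPM.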
